A study of Mus musculus with 6 samples.

Results

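The 36 genes described here are targets of type I interferon, a set that cells of most kinds switch on when interferon reaches them. They were listed by name, with earlier results of these data known. Of the 36, 35 have a row among the 32285 genes counted. Mx1 has none and was not analysed here. They were followed through kidney leukocytes of C57BL/6J mice aged 8 weeks, in which live CD45+ cells were sorted and put through droplet-based single-cell RNA sequencing of the 3' ends of transcripts. The study compared 3 libraries from control mice with 3 libraries from mice with acute kidney injury after rhabdomyolysis, the breakdown of skeletal muscle that floods the kidney with myoglobin. The labels give both groups the same strain, age and tissue, and name no allele, no other agent and no time after injury. Whether each library came from its own animal is not stated, so the p-values rest on library-to-library spread that may be technical only.

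Type I interferons (the alpha forms, beta and a few relatives) bind the receptor made of Ifnar1 and Ifnar2. The kinases Jak1 and Tyk2 then pass the signal to Stat2, which acts with Irf9 at the interferon-stimulated response element (ISRE) in front of target genes. The targets include sensors of foreign or misplaced nucleic acid, the transcription factors that amplify the signal, proteins that block viral replication, and proteins that restrain the response. In the kidney, macrophages, dendritic cells and lymphocytes all carry the receptor, and interferon-gamma, made by T and NK cells, induces many of the same genes through its own receptor.

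The start sites of 27 of the 36 genes have a window in the RefSeq promoter table (build GRCm38.p6). The ISRE core was searched on both strands as GAAA, any 2 bases and GAAA again, in windows of 300 bases, 250 before to 50 after the start, and overlapping matches were counted separately. It was found for 14 of these 27 genes (51.9%), against 3.99% of the 27025 genes of the table. The 14 were Bst2, Ddx58, Ifih1, Ifit1, Ifit3, Ifit3b, Isg15, Oas1a, Oas3, Phf11b, Rsad2, Slfn5, Stat2 and Trim30a. Dhx58, Ifi204, Ifi27l2a, Mx1, Oas2, Parp14, Rtp4, Usp18 and Zbp1 have no window. The 250 bases before the start are shown for 4 genes on which the results turn, read 5′ to 3′ along the gene, with each match in capitals and overlapping matches run together. Isg15 (chr4:156200819-156201068, minus strand) holds 3 matches, Ifit3 (chr19:34583279-34583528, plus strand) holds 2, Phf11b (chr14:59341331-59341580, minus strand) holds 1, and Sp100 (chr1:85649738-85649987, plus strand) holds 0.
Isg15: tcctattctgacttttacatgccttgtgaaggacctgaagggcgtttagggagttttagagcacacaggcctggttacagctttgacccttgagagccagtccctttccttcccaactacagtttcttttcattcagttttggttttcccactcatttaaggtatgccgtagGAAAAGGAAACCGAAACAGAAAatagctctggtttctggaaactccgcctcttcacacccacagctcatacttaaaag
Ifit3: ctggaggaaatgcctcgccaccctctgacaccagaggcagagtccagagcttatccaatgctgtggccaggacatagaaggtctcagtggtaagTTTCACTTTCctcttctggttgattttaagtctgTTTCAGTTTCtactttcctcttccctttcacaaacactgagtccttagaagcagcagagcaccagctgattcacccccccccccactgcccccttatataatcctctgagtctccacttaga
Phf11b: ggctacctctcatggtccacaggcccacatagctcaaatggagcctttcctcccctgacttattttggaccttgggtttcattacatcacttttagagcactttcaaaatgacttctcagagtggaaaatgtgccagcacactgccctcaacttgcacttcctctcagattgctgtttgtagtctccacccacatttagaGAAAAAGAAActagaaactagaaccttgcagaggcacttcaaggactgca
Sp100: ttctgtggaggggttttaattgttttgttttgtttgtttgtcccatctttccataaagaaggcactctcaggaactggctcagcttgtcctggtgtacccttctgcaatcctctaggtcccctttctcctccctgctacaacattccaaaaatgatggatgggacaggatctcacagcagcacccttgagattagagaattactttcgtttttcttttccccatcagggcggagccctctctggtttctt
The 4 windows differ in what happened to their genes: Isg15 was called higher in macrophages, Ifit3 in dendritic cells, while Phf11b was called lower in macrophages and Sp100 in T cells. A match is a run of letters and was not tested for binding.

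The libraries held 10816727 to 22656666 gene UMIs (unique molecular identifiers, each marking 1 captured RNA molecule). After filters, 2201 to 3360 cells per control library and 990 to 1487 per rhabdomyolysis library were kept, with median UMIs of 3553 to 3773 and 4510 to 5967 per cell. Ptprc, which encodes CD45, had a mean log2 CPM (UMIs of a gene per 1000000 UMIs) of 8.97 over the kept cells. Libraries shared 0 to 4 cell barcodes per pair. Cells were put into classes by UMIs of marker genes, and a second set of markers that the gates did not use was then summed. Its level per 10000 UMIs moved with the groups: the macrophage set was 264 in control and 146 in rhabdomyolysis macrophages, the T cell set 23.6 and 15.3 in T cells, and the B cell set 22.2 and 11.1 in B cells. The NK set was 23.1 and 8.39 in T cells. In conventional dendritic cells their own set was 3.84 and 1.83, the classical monocyte set 25.5 and 34.5, and the neutrophil set 1.42 and 13.2, in which Il1b was the only gene with enough UMIs to be tested. The part of these shifts in the results was not tested.

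The summed level of the 35 genes was lower after rhabdomyolysis in lymphocytes, while macrophages and dendritic cells overlapped with control. In T cells it was 25.1, 23.9 and 29.2 UMIs per 10000 gene UMIs in the control libraries and 17.0, 15.1 and 17.2 in the rhabdomyolysis libraries, a mean of 26.1 ± 2.78 against 16.4 ± 1.18 (SD, n = 3 libraries). In B cells it was 17.1, 18.7 and 19.4 against 13.02, 8.59 and 15.5, and in NK cells 13.5, 12.4 and 13.1 against 6.81, 10.9 and 8.76. In these 3 lymphocyte classes every rhabdomyolysis library lay below every control library. With stricter gates (at least 5 marker UMIs and at most 1 of another class) this still held in T and B cells. The NK groups then overlapped, at 13.2, 11.50 and 11.47 against 7.19, 11.55 and 8.55, with 12 to 19 cells per control library. In macrophages the sum was 33.2, 33.4 and 40.4 against 23.8, 36.3 and 31.1, a mean of 35.6 ± 4.10 against 30.4 ± 6.25, and the groups overlapped. Conventional dendritic cells overlapped too, at 16.5, 16.9 and 28.9 against 14.8, 40.0 and 28.0, with the highest value in rhabdomyolysis library 2. Each sum is a share of the class total of its library. Scaling by such totals, in place of the trimmed means used for single genes, moved the median log2 change of all genes. The shift was -0.20 in T and NK cells, -0.06 in B cells, -0.10 in macrophages and 0.0004 in dendritic cells. Its part in the lower lymphocyte sums was not tested. No p is given for these sums, because the genes were chosen with earlier results of these data known.

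**Figure D1:**
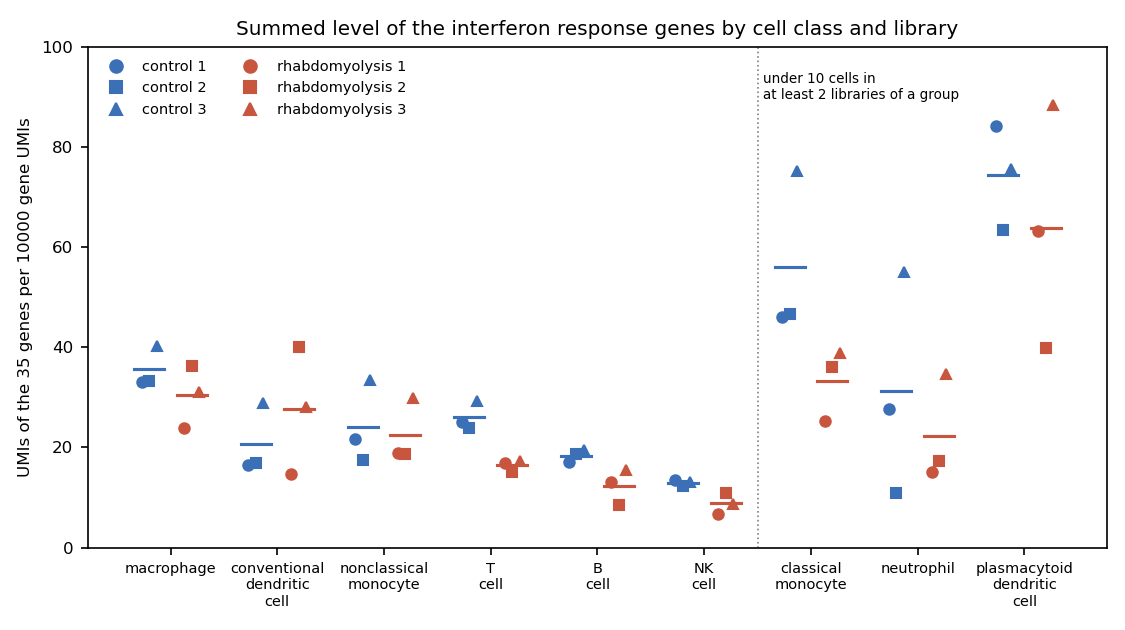
UMIs of the 35 interferon response genes per 10000 gene UMIs (y axis) in each cell class (x axis), with 1 point per library, blue for control and red for rhabdomyolysis, and a line at each group's mean. The rhabdomyolysis points lie below all control points in T, B and NK cells, whereas in macrophages 1 of the 3 lies within the control range and the other two below it, and in dendritic cells 1 each lies below, within and above; classes right of the dotted line rest on few cells.

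A single gene made up much of each sum. Ifi27l2a, a small interferon-induced membrane protein, gave 27.8% of the control and 20.6% of the rhabdomyolysis UMIs of the set in macrophages, 24.5% and 23.3% in T cells, and 30.5% and 18.9% in B cells. In NK cells it gave only 0.678% and 3.11%. Without it, the drop in T cells was 7.02 per 10000 in place of 9.63, and in B cells 2.81 in place of 6.03. The T and NK cell groups were still apart without it, but the B cell groups then overlapped, at 11.9, 13.7 and 12.7 against 10.3, 6.96 and 12.6. The T cell difference was also seen cell by cell. After each cell was thinned to 1000 UMIs, the share of T cells with at least 5 UMIs of the set was 13.3%, 10.8% and 14.4% in control libraries and 4.11%, 2.35% and 6.90% in rhabdomyolysis libraries. Unthinned, where control T cells were deeper (median 3693 against 2956 UMIs), the shares were 75.7%, 74.3% and 78.9% against 42.3%, 38.8% and 44.1%. The groups did not overlap on either scale. Of macrophages, 23.3%, 23.8% and 33.6% against 13.6%, 30.6% and 25.1% reached 5 UMIs after thinning, which overlapped; unthinned, where rhabdomyolysis cells were deeper, the shares were 78.9%, 77.3% and 87.3% against 86.9%, 93.1% and 93.0%.

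Single genes were tested on UMIs summed over the cells of a class in each library, with edgeR's quasi-likelihood test, and called at a Benjamini-Hochberg adjusted p under 0.05 over all genes of the class. Across the 6 classes with enough cells, 15 genes were called in at least 1 class and 14 of these in exactly 1. Zbp1 was the exception, higher in both macrophages and conventional dendritic cells. No gene was called higher in 1 class and lower in another, and 20 of the genes with a row were called in none; 4 genes (Zbp1, Bst2, Ifi209 and Phf11b) had enough UMIs to be tested in all 6 classes and 7 in 1 class only. Phf11b had a negative log2 change in all 6, and Ifi27l2a and Ifi47 in all 5 classes in which each was tested.

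**Figure D2:**
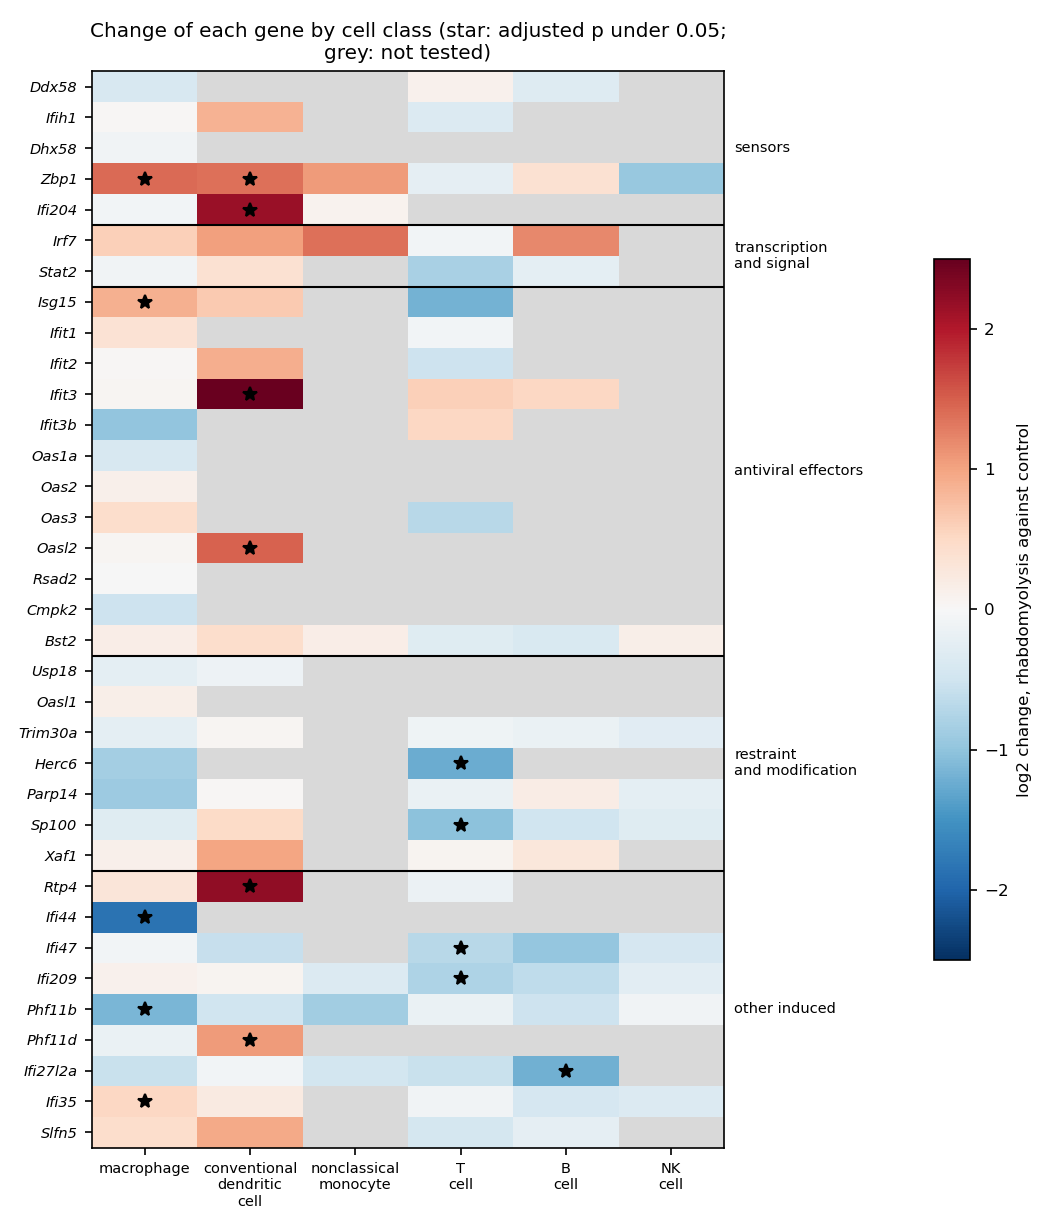
Log2 change of each gene (rows, ordered by role) between rhabdomyolysis and control in the 6 classes tested (columns), red for higher and blue for lower in rhabdomyolysis, with a star at an adjusted p under 0.05 and grey where a gene had too few UMIs. The stars fall on higher values in the dendritic cell column (6 genes), on lower values in the T cell column (4 genes) and on both in macrophages (3 higher and 2 lower).

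Macrophages, the best covered class, were tested for all 35 genes: 3 rose and 2 fell, where 41.7% of all 10199 genes tested were called (21.0% higher and 20.7% lower). This share of the set, 5 of 35, lay below that of all genes, and its median log2 change was -0.003 against -0.05 over all genes. Of the 5 sensors, Zbp1, which binds nucleic acid in the Z form and can start necroptotic cell death, rose. It stood at 40.9, 43.0 and 56.8 CPM in control libraries and at 58.8, 204 and 88.4 in rhabdomyolysis libraries, a log2 change of 1.41 ± 0.41 (SE, adjusted p = 0.022). The groups did not overlap, but rhabdomyolysis library 1 was only just above the highest control. Ddx58 and Ifih1, the cytosolic RNA sensors RIG-I and MDA5, their regulator Dhx58 and the DNA sensor Ifi204 were not called, with log2 changes from -0.40 to 0.03. Irf7, the transcription factor that amplifies interferon production, was at 56.8, 46.6 and 66.5 against 53.1, 122 and 66.0 CPM (log2 change 0.60 ± 0.30, adjusted p = 0.14). Stat2 was at 31.4, 34.2 and 49.5 against 19.5, 66.3 and 14.95 CPM (-0.08 ± 0.50, adjusted p = 0.91). For both, rhabdomyolysis library 2 was the highest of all 6 and the other rhabdomyolysis libraries lay within or below the control range.

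Among the 12 antiviral effectors with a row, only Isg15 was called in macrophages. Isg15, a ubiquitin-like protein that is attached to other proteins, was at 65.5, 56.7 and 80.4 CPM in control and 72.6, 161 and 116 in rhabdomyolysis libraries, a log2 change of 0.88 ± 0.28 (adjusted p = 0.033). The groups overlapped through rhabdomyolysis library 1, below control library 3. Ifit1, whose protein binds foreign RNA ends, was at 7.57, 11.1 and 18.1 against 5.44, 25.6 and 11.9 CPM (0.35 ± 0.50, adjusted p = 0.60). Ifit3 of the same family was at 57.8, 54.1 and 70.0 against 25.3, 119 and 30.2 CPM (0.04 ± 0.51, adjusted p = 0.95). Of its 3 rhabdomyolysis values, 1 was far above and the others far below the control range. Ifit3b, a near-identical copy of Ifit3, was at 12.8, 12.5 and 13.4 against 2.56, 11.2 and 3.87 CPM with no overlap (-0.99 ± 0.43, adjusted p = 0.094), and how reads were divided between such copies is not given in the sources used here. Bst2 (tetherin), which holds virus particles on the cell surface, was at 523, 496 and 586 against 534, 489 and 664 CPM, nearly level (0.16 ± 0.17, adjusted p = 0.46). The oligoadenylate synthase genes Oas1a, Oas2, Oas3 and Oasl2, and Ifit2, Rsad2 and Cmpk2, had log2 changes from -0.51 to 0.45 and none passed.

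None of the 7 genes of restraint and modification was called in macrophages, and 5 of the 7 had negative changes. Usp18, which removes Isg15 from proteins and damps the receptor, was at 21.5, 18.7 and 28.5 against 12.8, 19.3 and 22.4 CPM (-0.23 ± 0.25, adjusted p = 0.48). Parp14, an ADP-ribosyltransferase, was at 127, 156 and 174 against 48.0, 123 and 55.9 CPM without overlap (-0.91 ± 0.33, adjusted p = 0.054). Herc6, a ligase for Isg15, was at 27.1, 33.1 and 38.5 against 9.27, 27.6 and 13.9 CPM (-0.84 ± 0.35, adjusted p = 0.081). Both were lowest in rhabdomyolysis library 1, next lowest in library 3, and near the controls in library 2.

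The 9 remaining induced genes held the other macrophage calls. Phf11b, which encodes a PHD finger protein, was the most even of them: 302, 284 and 292 CPM in control against 97.5, 127 and 149 in rhabdomyolysis libraries, so that every rhabdomyolysis library was far below every control (log2 change -1.14 ± 0.17, adjusted p = 0.0013). Its near neighbour in sequence Phf11d was at 81.8, 74.5 and 87.3 against 51.2, 88.3 and 64.4 CPM (-0.16 ± 0.21, adjusted p = 0.57). Ifi44 fell from few counts, 107 UMIs over the control and 19 over the rhabdomyolysis libraries, at 3.20, 6.07 and 10.8 against 0.639, 1.22 and 3.09 CPM (-1.84 ± 0.61, adjusted p = 0.039). Ifi35, an interferon-induced leucine zipper protein, rose from 64.1, 51.1 and 64.2 to 86.6, 69.0 and 83.3 CPM without overlap (0.51 ± 0.17, adjusted p = 0.044). Ifi27l2a was at 901, 903 and 1188 against 569, 491 and 849 CPM, again without overlap, but did not pass (-0.56 ± 0.23, adjusted p = 0.077). In all, 9 of the 35 genes did not overlap between groups in macrophages, against 54.5% of all genes tested.

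The macrophage calls depended on single libraries. So did those over all genes, of which 2520 to 5883 were called without 1 library, against 4249 in the full comparison. In macrophages, rhabdomyolysis library 2 was the highest of its group for 27 of the 35 genes and the highest of all 6 libraries for 22, and rhabdomyolysis library 1 was the lowest of its group for 26; control library 3 was the highest control for 29. Without rhabdomyolysis library 2, 13 genes were called lower in place of 2, while 3 were still higher. Ifit3 then had a log2 change of -0.96 (adjusted p = 0.000639) and Stat2 of -0.99 (adjusted p = 0.0055). Without control library 1 or without control library 2, 0 genes were called higher, with Zbp1 at adjusted p = 0.081 and 0.089 and Isg15 at 0.11 and 0.13. Ifi35 was called in the full comparison and lost its call without any 1 of 5 libraries, all but rhabdomyolysis library 2. Ifi44 lost its call without control library 2 or 3 (adjusted p = 0.0805 and 0.14) or without rhabdomyolysis library 1 or 2 (0.14 and 0.061). The number of genes called lower was 1 without control library 2, control library 3 or rhabdomyolysis library 1. Phf11b was called in each of the 6 fits, with changes from -1.26 to -0.95. Scaled by library totals in place of trimmed means (TMM), 2 genes were called higher and 4 lower, and the small positive change of Ifit3 became -0.05. The sign of Ifit1 turned without rhabdomyolysis library 2 (-0.27).

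Markers of the macrophages themselves differed between the groups. Among the macrophage markers that the gates did not use, Cx3cr1, Cd81 and Csf1r fell and Trem2 rose (1.39 ± 0.25, adjusted p = 0.0030). Cx3cr1, a receptor of kidney resident macrophages, was at 622, 624 and 548 against 65.2, 19.03 and 184 CPM. C1qa, a complement gene of macrophages looked up after the data were seen, overlapped, at 80.3, 70.8 and 72.3 against 81.6, 54.4 and 68.8 UMIs per 10000. Of the 5 classical monocyte markers tested in macrophages, 4 rose, and Lyz2 was not called (-0.57 ± 0.27, adjusted p = 0.12). Fn1 was at or below 0.432 CPM in the control libraries and at 120, 98.3 and 198 in the rhabdomyolysis libraries, S100a4 at 76.4, 62.8 and 31.1 against 431, 404 and 734 CPM, Msrb1 at 41.9, 39.2 and 38.03 against 362, 490 and 261, and Plac8 at 19.8, 4.16 and 7.35 against 49.6, 25.4 and 152. The monocyte genes Ccr2 and Ly6c2 were also looked up after the data were seen. Ccr2 went the other way, at 3.16, 4.17 and 2.86 against 1.07, 0.990 and 1.56 UMIs per 10000, without overlap. Ly6c2 was almost uncounted in both groups, at or below 0.0103 UMIs per 10000 in every library. The part of these marker shifts in the macrophage results was not tested.

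**Figure D3:**
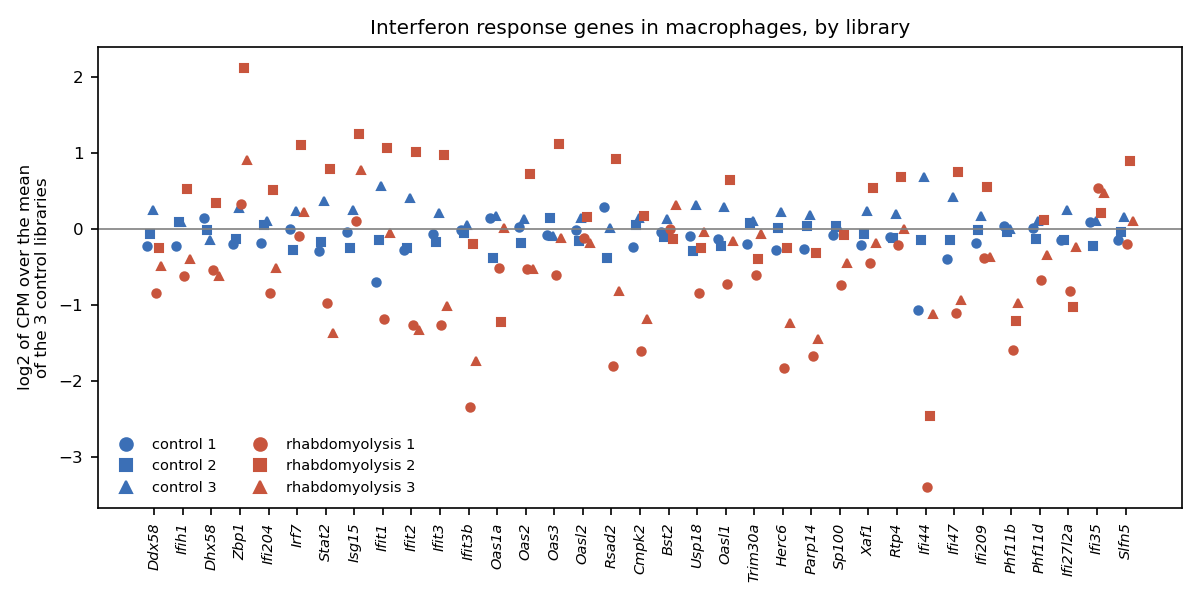
Level of each gene in the macrophages of each library, as log2 of its CPM over the mean of the 3 control libraries (y axis), with genes along the x axis in order of role. Red squares (rhabdomyolysis library 2) lie above the red circles (library 1) for most genes, and Phf11b is below the control points in all 3 rhabdomyolysis libraries.

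In T cells 24 genes had enough UMIs, and 4 fell while 0 rose, where 9.88% of the 7872 genes tested were called (5.81% higher and 4.08% lower). The median log2 change of the 24 was -0.26 against -0.01 over all genes, and 20 of the 24 were negative. Sp100, a protein of nuclear bodies that restricts viral DNA, fell the most evenly. It was at 382, 353 and 355 CPM in control against 140, 164 and 157 in rhabdomyolysis libraries, with the groups far apart (log2 change -1.03 ± 0.16, adjusted p = 0.000303). Herc6 fell from 38.3, 39.1 and 44.7 to 14.5, 10.3 and 18.4 CPM (-1.24 ± 0.33, adjusted p = 0.024). The other members of restraint and modification that were tested, Trim30a, Parp14 and Xaf1, were not called, at log2 changes from -0.17 to 0.06.

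Of the other induced genes tested in T cells, 7 of 7 were negative and 2 were called. Ifi47, an immunity-related GTPase, fell from 230, 284 and 284 to 145, 123 and 159 CPM (-0.69 ± 0.17, adjusted p = 0.014). Ifi209, of the PYHIN family of nucleic acid binding proteins, fell from 141, 149 and 181 to 111, 58.2 and 80.6 CPM (-0.76 ± 0.21, adjusted p = 0.028). Neither gene overlapped between groups. PYHIN genes are close copies of each other, so reads of Ifi209 and Ifi204 may be shared. Ifi27l2a was at 664, 492 and 744 against 401, 247 and 470 CPM, without overlap but above the threshold (-0.56 ± 0.20, adjusted p = 0.086).

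Isg15 in T cells was at 54.0, 72.3 and 102 CPM in control against 33.8, 30.8 and 25.3 in rhabdomyolysis libraries. Every rhabdomyolysis library was below every control, and the change of -1.18 ± 0.37 just missed the threshold (adjusted p = 0.052); it passed without control library 1 (adjusted p = 0.0099), with library totals (0.018) and in DESeq2 (0.042). Irf7 was at 32.2, 34.2 and 41.4 against 19.3, 37.7 and 29.9 CPM (-0.06 ± 0.30), and Bst2 at 148, 156 and 190 against 184, 54.8 and 127 CPM (-0.29 ± 0.24), both with overlap. Ifit1 was at 15.7, 25.6 and 33.4 against 4.83, 34.2 and 18.4 CPM (-0.07 ± 0.49). Ifit3 was at 19.2, 30.9 and 45.2 against 29.0, 75.3 and 23.0 CPM (0.59 ± 0.45, adjusted p = 0.49), again with its highest value in rhabdomyolysis library 2, without which the change was -0.17. Stat2 and Oas3 rested on 7 UMIs each in the rhabdomyolysis libraries and were not called (-0.80 ± 0.57 and -0.70 ± 0.55). Usp18 had too few UMIs in T cells to be tested.

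In T cells 8 of the 24 genes did not overlap between groups, against 33.9% of all genes tested. Sp100 was called without each library in turn (-1.125 to -1.002). In these fits 492 to 771 of all genes were called, against 778 in the full comparison. Only Sp100 stayed called without control library 3, and 2 genes were called without control library 2 or rhabdomyolysis library 2; with stricter gates, the count was 1. Herc6 was also not called without rhabdomyolysis library 1 (adjusted p = 0.068) nor Ifi209 without library 3 (0.081). With the stricter gates, Herc6, Ifi209 and Ifi47 had adjusted p of 0.16, 0.38 and 0.14. The T cells of the groups also differed in other genes, chosen after their values were seen. Cxcr6, a receptor of tissue-resident cells, was at 11.5, 10.9 and 9.79 against 2.27, 1.03 and 2.30 UMIs per 10000, Nkg7 of cytotoxic granules at 12.98, 14.5 and 12.4 against 5.02, 3.29 and 5.502, and Ccr7 of recirculating cells at 0.360, 0.487 and 0.391 against 1.35, 1.88 and 0.944. Whether these shifts bear on the interferon genes was not tested.

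The change itself was compared between macrophages and T cells of the same libraries, with the library as a block. Of 35 genes, 9 differed, against 23.1% of 10619 genes tested (16.3% more positive in macrophages and 6.80% less). The log2 change of Isg15 was more positive in macrophages by 2.22 ± 0.29 (adjusted p = 6.3e-07), that of Zbp1 by 1.76 ± 0.22 (adjusted p = 3.2e-07). Zbp1 in T cells was at 114, 98.9 and 131 against 91.8, 106 and 66.8 CPM, overlapping. Slfn5, a Schlafen family member, differed by 1.02 ± 0.30 (adjusted p = 0.012), although its change was called in neither class: 81.4, 87.9 and 100 against 78.7, 167 and 97.2 CPM in macrophages and 42.5, 35.2 and 52.3 against 24.1, 27.4 and 29.9 in T cells. Ifi209 (0.97 ± 0.24, adjusted p = 0.0024), Sp100 (0.90 ± 0.17, adjusted p = 0.00017), Ifi35 (0.76 ± 0.21, adjusted p = 0.0087) and Bst2 (0.65 ± 0.23, adjusted p = 0.041) were also more positive in macrophages. Sp100 in macrophages was at 107, 116 and 115 against 68.1, 107 and 83.3 CPM, a smaller drop than in T cells. Phf11b went the other way (-0.78 ± 0.24, adjusted p = 0.014): in T cells it was at 96.1, 74.3 and 107 against 86.9, 58.2 and 73.7 CPM. The difference for Ifi44 (-4.89 ± 1.58, adjusted p = 0.022) rests on 5 UMIs in T cells. Without control library 1, 5 of the 35 differed, and with stricter gates 4.

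**Figure D4:**
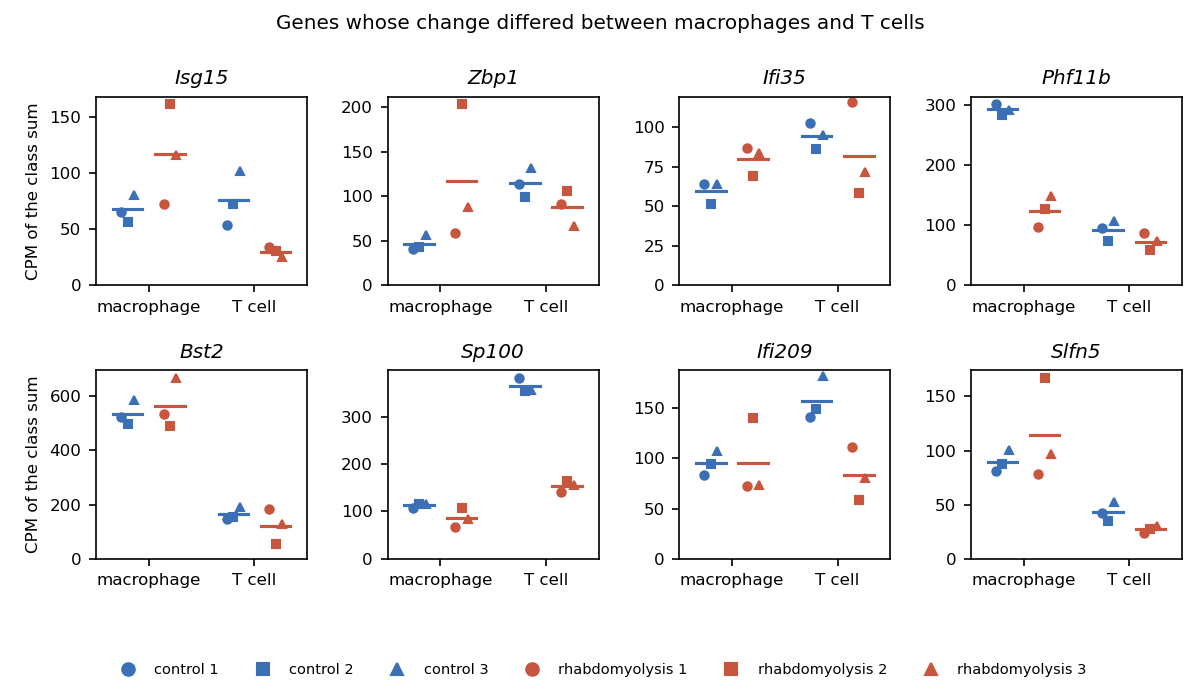
CPM of 8 genes whose change differed between the classes (y axis, from 0, each panel on its own scale), in macrophages and T cells, with 1 point per library and a line at each group's mean. Isg15 is higher on average in rhabdomyolysis macrophages (72.6 to 161 against 56.7 to 80.4) and lower in rhabdomyolysis T cells (25.3 to 33.8 against 54.0 to 102), and Phf11b shows a larger drop in macrophages (97.5 to 149 against 284 to 302) than in T cells (58.2 to 86.9 against 74.3 to 107).

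**Figure D5:**
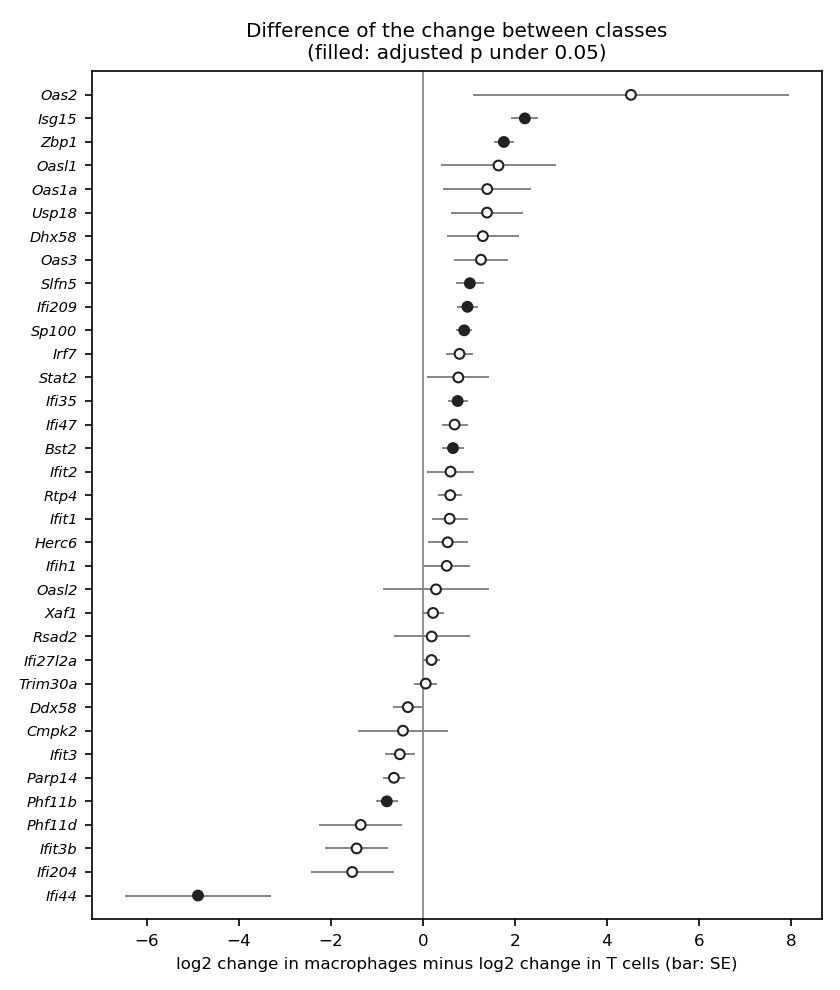
Log2 change in macrophages minus log2 change in T cells (x axis) for the 35 genes (y axis), with SE bars and filled points at an adjusted p under 0.05. Isg15 (2.22) and Zbp1 (1.76) have narrow bars on the positive side, whereas Oas2 at the top has a wide bar and an open point.

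In conventional dendritic cells all calls were of higher genes: 6 of the 23 genes tested rose and 0 fell, where 14.5% of 4878 genes were called (7.36% higher and 7.11% lower). The median log2 change of the 23 was 0.66 against -0.03 over all genes, and 19 were positive. Ifit3 was at 10.4, 11.9 and 64.5 CPM in control against 17.3, 365 and 50.4 in rhabdomyolysis libraries (2.47 ± 0.76, adjusted p = 0.041). Rtp4, a chaperone of membrane receptors, was at 19.8, 16.7 and 38.4 against 25.9, 212 and 81.5 CPM (2.22 ± 0.47, adjusted p = 0.0051), and Ifi204 at 7.28, 19.1 and 38.4 against 17.3, 189 and 55.2 CPM (2.16 ± 0.59, adjusted p = 0.022). For all 3, rhabdomyolysis library 2 stood far above the rest and library 1 lay inside the control range.

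Oasl2, an oligoadenylate synthase-like protein, was at 14.6, 15.5 and 21.5 against 8.65, 60.0 and 52.8 CPM in conventional dendritic cells (1.47 ± 0.40, adjusted p = 0.023). Zbp1 was at 37.4, 40.5 and 67.5 against 51.9, 231 and 79.1 CPM (1.37 ± 0.40, adjusted p = 0.033). Phf11d was at 35.4, 35.7 and 44.5 against 51.9, 134 and 57.6 CPM (1.07 ± 0.33, adjusted p = 0.042). Phf11d was the only 1 of the 23 genes whose groups did not overlap, against 33.1% of all genes tested. Irf7 (27.0, 25.0 and 99.7 against 25.9, 111 and 118 CPM) and Xaf1 (38.5, 29.8 and 67.5 against 51.9, 134 and 72.0 CPM) were not called, at 1.03 ± 0.48 and 0.99 ± 0.36 (adjusted p = 0.18 and 0.080). Isg15 was at 36.4, 73.8 and 242 against 51.9, 259 and 185 CPM, with control library 3 as high as the upper rhabdomyolysis libraries (0.66 ± 0.54, adjusted p = 0.47).

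These calls rest on 243 control and 73 rhabdomyolysis dendritic cells, 13 of them in rhabdomyolysis library 1 and 22 in library 2. Without rhabdomyolysis library 2 or without control library 1, 1 gene was called, Rtp4 both times; without control library 2, 0 were; without control library 3, 9 were. Oasl2 was not called without rhabdomyolysis library 3 (adjusted p = 0.16) nor Phf11d without control library 3 (0.065). Of all genes, 372 to 682 were called without 1 library, against 706 in the full comparison. DESeq2 called 2 genes of the set. Without rhabdomyolysis library 2, Ifit3 fell to a log2 change of 0.65 and Zbp1 to 0.58.

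Markers of dendritic cells and of monocytes moved with these calls. Of the 4 tested dendritic cell markers that the gates did not use, Batf3 (-1.57 ± 0.31, adjusted p = 0.0029) and Kmo (-1.08 ± 0.31, adjusted p = 0.031) fell and 0 rose. Of the 4 classical monocyte markers, 3 rose and Lyz2 fell (-2.71 ± 0.25). Plac8 rose from 215, 185 and 295 to 795, 1399 and 595 CPM, Msrb1 from 38.5, 40.5 and 49.1 to 242, 268 and 206, and S100a4 from 978, 1089 and 1126 to 1669, 2217 and 2300. The macrophage and monocyte genes Fcgr4 (1.90 ± 0.50, adjusted p = 0.019) and Csf1r (1.03 ± 0.31, adjusted p = 0.036) also rose, as did Il1b, an inflammatory cytokine, from 103, 50.03 and 110 to 2014, 781 and 1350 CPM. Subset genes were chosen after their values were seen. Xcr1, a receptor of cross-presenting cells, was at 1.62, 1.45 and 2.06 against 0.865, 0.139 and 0.408 UMIs per 10000, and Irf8 at 6.21, 4.32 and 5.89 against 1.21, 0.554 and 1.18. Of the genes of the other conventional subset, Cd209a was lower too, at 8.22, 10.3 and 10.9 against 4.32, 2.68 and 5.56, and so was Clec10a, at 3.99, 4.66 and 4.31 against 1.64, 2.03 and 3.36, while Mgl2 and Sirpa overlapped. The part of all these shifts in the dendritic cell calls was not tested.

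In B cells 1 of 16 genes tested was called, Ifi27l2a, where 4.87% of 4845 genes were (2.44% lower). It fell from 521, 495 and 670 to 273, 163 and 283 CPM with no overlap (-1.21 ± 0.21, adjusted p = 0.00093) and was called without each library in turn (-1.48 to -0.98). Free RNA, estimated from genes of another lineage, could account for 10.8% of its control and 52.2% of its rhabdomyolysis UMIs in these cells. Sp100 in B cells was at 276, 284 and 303 against 104, 202 and 227 CPM, without overlap (-0.51 ± 0.20, adjusted p = 0.18), and Ifi209 at 269, 334 and 335 against 182, 98.8 and 287 CPM (-0.63 ± 0.25, adjusted p = 0.16). Irf7 was at 13.9, 20.5 and 6.70 against 39.0, 24.7 and 32.4 CPM from 37 and 15 UMIs (1.20 ± 0.52, adjusted p = 0.22). The change of Ifi27l2a was smaller in T than in B cells by 0.65 ± 0.18 (adjusted p = 0.011, the only 1 of 21 genes, where 4.42% of 6631 genes differed), a comparison added after seeing the data. That difference was not called without control library 2 or 3 or without rhabdomyolysis library 1 or 3, and 2 genes differed without rhabdomyolysis library 2.

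In NK cells 0 of 9 genes tested were called by edgeR and 0 by DESeq2, with 1 at an unadjusted p under 0.05, where 3.65% of 3209 genes were called. That gene was Zbp1, at 68.5, 46.4 and 60.3 against 35.8, 25.9 and 25.9 CPM with no overlap (-0.94 ± 0.44, adjusted p = 0.30). Sp100, which fell in T cells, was at 283, 259 and 362 against 143, 337 and 210 CPM here (-0.30 ± 0.26, adjusted p = 0.63), and Ifi47 at 237, 217 and 159 against 125, 181 and 135 CPM (-0.42 ± 0.27, adjusted p = 0.47). Both overlapped. The change did not differ detectably between T and NK cells for any of 17 genes (edgeR called 0, with 3 at an unadjusted p under 0.05, and 1.59% of 4856 genes differed), with 18 to 98 NK cells per library behind it.

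Monocytes were few in control kidneys, 3 to 5 classical cells per library against 84 to 146 after rhabdomyolysis, so classical monocytes were not tested. Nonclassical monocytes had 0 of 7 genes called by edgeR and 0 by DESeq2, with 3 at an unadjusted p under 0.05, where 10.1% of 1551 genes were called. Those 3 were Irf7 (21.9, 12.0 and 102 against 144, 66.3 and 113 CPM), Zbp1 (98.6, 60.2 and 67.8 against 98.3, 292 and 134 CPM) and Phf11b (164, 84.3 and 170 against 52.9, 73.0 and 93.1 CPM), with log2 changes of 1.39, 1.07 and -0.87. Classical and nonclassical cells joined, an analysis added after seeing the data, gave 2 genes higher and 2 lower of 24, where 17.1% of 4907 genes were called (8.21% higher and 8.93% lower). Since classical cells made up a larger part of the joined class after rhabdomyolysis, a change within cells and a change of mix cannot be told apart there. Rtp4 was at 57.9, 68.8 and 33.4 against 114, 197 and 127 CPM (1.54 ± 0.36, adjusted p = 0.010) and Slfn5 at 49.7, 77.4 and 100 against 114, 178 and 157 CPM (1.14 ± 0.32, adjusted p = 0.025). Phf11b was at 141, 86.05 and 189 against 37.2, 41.8 and 66.0 CPM (-1.34 ± 0.34, adjusted p = 0.015) and Ifi47 at 24.8, 112 and 189 against 12.8, 37.7 and 32.5 CPM (-1.71 ± 0.53, adjusted p = 0.039). Only Ifi47 overlapped. In the control libraries these values rest on 18 to 44 UMIs per gene, and without single libraries 1 to 4 genes were called higher and 0 to 3 lower, the extremes being 4 higher and 0 lower without control library 3.

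Neutrophils, 8 to 11 per control and 86 to 118 per rhabdomyolysis library, were tested as an addition after seeing the data: edgeR called 0 of 4 genes and DESeq2 0, with 1 at an unadjusted p under 0.05, where 11.4% of 1199 genes were called. Isg15 in neutrophils was at 124, 173 and 427 against 118, 174 and 425 CPM with overlap (0.13 ± 0.62, adjusted p = 0.93), and the control values rest on 3, 3 and 8 UMIs. Ifi27l2a was at 1486, 173 and 2083 against 559, 210 and 677 CPM (-1.31 ± 0.55, adjusted p = 0.14), with 78 control UMIs in all.

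The ligands themselves were almost uncounted. Over all kept cells, Ifnb1 had 3 control and 2 rhabdomyolysis UMIs and Ifnz 2 and 1. The 7 listed interferon alpha genes (Ifna1, Ifna2, Ifna4, Ifna5, Ifna11, Ifna12 and Ifna13), Ifnab, Ifne, Ifnk, Ifnl2 and Ifnl3 had no UMI, so a difference between groups was not detectable at this depth. Ifng, which encodes interferon-gamma, fell in T cells from 79.7, 97.9 and 137 to 24.1, 13.7 and 27.6 CPM (-2.02 ± 0.36, adjusted p = 0.0014, 701 against 21 UMIs), with the groups far apart. In NK cells it was at 131, 124 and 143 against 108, 51.8 and 161 CPM and was not called (log2 change 0.23).

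Of the 10 receptor and signal genes tested in macrophages, 1 rose and 3 fell, a share near the 41.7% of all genes called there. Ifnar1, the receptor chain that binds Tyk2, fell from 146, 152 and 133 to 46.7, 44.6 and 51.0 CPM (-1.50 ± 0.14, adjusted p = 0.00017). Ifnar2, the chain that binds Jak1, fell from 389, 412 and 377 to 226, 212 and 236 CPM (-0.71 ± 0.14, adjusted p = 0.0040). Tyk2 fell by 0.80 and Stat3 rose by 1.17 on the log2 scale. All 3 rhabdomyolysis libraries were alike for both receptor chains, library 2 included. Irf9, at 74.8, 76.8 and 84.9 against 58.5, 77.1 and 60.3 CPM, was not called.

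In T cells Ifnar2 fell from 105, 103 and 90.4 to 62.8, 44.5 and 46.0 CPM (-0.82 ± 0.21, adjusted p = 0.020). The chains of the interferon-gamma receptor rose, Ifngr1 by 1.06 and Ifngr2 by 2.66 on the log2 scale. In dendritic cells 1 of 10 rose, Jak2 (1.32 ± 0.25, adjusted p = 0.0022), where 7.36% of all genes rose. Ifnar1 and Ifnar2 were not called there, at 0.06 and 0.28. Socs3, which blocks cytokine receptor signalling, was the largest change among the feedback genes of macrophages (from 69.4, 63.8 and 60.7 to 748, 914 and 453 CPM, log2 change 3.55 ± 0.27, adjusted p = 7.16e-05) and of T cells (from 25.7, 17.8 and 17.4 to 237, 503 and 320 CPM, 4.31 ± 0.25, adjusted p = 1.67e-08). It is induced by interleukin signals through Stat3 as well as by interferons.

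Sensors outside the set, with their adaptors, fell in 6 of 16 cases in macrophages and rose in 0, where 20.7% of all genes fell and 21.0% rose. The largest drops were in Tlr9 (-2.61, from 3 libraries at 5.10, 3.81 and 3.67 CPM), Unc93b1, which carries nucleic acid sensing receptors to endosomes (598, 619 and 510 against 169, 225 and 180 CPM, -1.49 ± 0.16, adjusted p = 0.000317), Irf8 (-1.12) and Tlr4 (-0.94). None of 10 was called in T cells, where 9.88% of all genes were. In dendritic cells 4 of 8 fell, led by Irf8 (-2.49) and Tlr3 (-1.90), and 2 rose, Irf5 (0.90) and Myd88 (0.83), where 7.11% of all genes fell and 7.36% rose.

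Interferon-gamma induces a partly separate list of targets. Of 14 tested in macrophages, 3 fell and 1 rose, no larger a share than the 41.7% of all genes called. Cxcl9, a chemokine for T cells, was at 75.7, 132 and 85.1 CPM in the control macrophages and at or below 0.488 CPM in the rhabdomyolysis macrophages (log2 change -8.27 ± 0.46, adjusted p = 2.67e-05). In T cells 3 of 13 fell, Iigp1 (-1.93), Gbp4 (-1.003) and Igtp (-0.83), and 1 rose, where 4.08% of all genes fell and 5.81% rose. In dendritic cells 1 of 6 fell, Cxcl9, at 45.8, 188 and 330 CPM in control libraries.

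A further list of interferon-induced genes outside the set was counted in the same way. In macrophages 8 of 37 rose and 8 fell, about the share of all genes (21.0% and 20.7%). In T cells 1 of 30 rose and 6 fell, where 5.81% and 4.08% of all genes did, and in dendritic cells 9 of 31 rose and 1 fell, where 7.36% and 7.11% did. Ifitm1, which blocks viral entry, rose in dendritic cells from 3 control libraries at or below 6.14 CPM to 207, 744 and 319 CPM (7.13 ± 0.58, adjusted p = 2.07e-06) and in macrophages from 4.66, 2.08 and 1.51 to 24.6, 28.8 and 77.1 CPM (4.004 ± 0.53, adjusted p = 0.000721). The monocyte markers Plac8, Msrb1 and S100a4 rose in the same macrophages and dendritic cells, and their part was not tested. Ifi203, a PYHIN gene beside Ifi204 and Ifi209, fell in macrophages from 184, 224 and 209 to 48.3, 39.0 and 80.2 CPM (-1.79 ± 0.25, adjusted p = 0.00094). Epsti1 was the largest drop of this list in T cells, from 443, 539 and 509 to 140, 137 and 157 CPM (-1.57 ± 0.16, adjusted p = 8.62e-06), and Ly6a fell there by 1.03 on the log2 scale while it rose by 2.79 in dendritic cells.

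In the sum over all kept cells, 11 of 35 genes rose and 3 fell, where 45.8% of 12070 genes were called (24.1% higher and 21.7% lower). In this sum, fewer cells of a type and less RNA per cell cannot be told apart. The largest increases were those of Zbp1 (1.29 ± 0.33), Irf7 (1.15 ± 0.26), Isg15 (1.13 ± 0.32), Rtp4 (0.94 ± 0.22), Slfn5 (0.93 ± 0.21) and Ifi204 (0.91 ± 0.25), and the decreases those of Ifi47 (-0.91 ± 0.30), Phf11b (-0.87 ± 0.15) and Sp100 (-0.57 ± 0.16). Of these, Irf7 was at 48.2, 39.1 and 61.0 against 61.2, 123 and 85.9 CPM, barely apart, and it was called in none of the 6 classes. With library totals in place of TMM the split turned to 5 higher and 8 lower, since that scaling moved the median log2 change of all genes by -0.29 here, against -0.20 in T and NK cells, -0.14 in joined monocytes and -0.10 in macrophages. Without control library 1 or 2, 5 and 4 genes were called higher, with Isg15 and Ifi204 among the calls lost; without control library 3, 7 were higher and 1 lower, and without rhabdomyolysis library 2, 10 were lower.

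Matches to the ISRE core were spread over both directions. Of the called genes with a window, 1 of 2 that rose in macrophages (Isg15), 1 of 2 that fell there (Phf11b), 1 of 3 that rose in dendritic cells (Ifit3) and 0 of 4 that fell in T cells (Sp100, Herc6, Ifi47 and Ifi209) held the core. These are counts of letters in a fixed window, with too few genes for more.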

How the data were processed

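The 36 genes, the gene lists and the tests were chosen with earlier results of these data known. The deposited matrices hold raw UMI counts for every gene and barcode, empty droplets included. Per the file headers they were made with Cell Ranger 4, and mm10 is the mouse build in the submitters' processing notes. How reads shared by near-identical genes were counted is not given in the sources used here. The matrices also list 6 antibody tags, not used here.

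A barcode was kept as a cell with at least 500 UMIs, 200 genes, at most 15% mitochondrial UMIs, Malat1 at or above 0.1%, and a profile unlike the free RNA of its library (barcodes of 100 or fewer UMIs; multinomial test, 10000 draws, adjusted p at most 0.001). The cells most like simulated doublets were removed, 0.8% per 1000 cells, which misses doublets within a class. A class needed 2 markers, 3 marker UMIs and a lead of 1.5 times over the next class.

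UMIs were summed per class and library and tested with edgeR 4.0.16 (quasi-likelihood, TMM, default expression filter, Benjamini-Hochberg over all genes). A library needed at least 10 cells of the class, except in the added neutrophil test, which kept control libraries with 8 cells. DESeq2 1.42.0 (R 4.3.3) was an alternative. Genes with too few UMIs were not tested. The results of 1 receptor or signal gene and of 1 marker gene are not reported here. CPM are UMIs per 1000000 UMIs of the class sum, and the SE of a log2 change is the change over the square root of its F value. Thinning, figures and sequence searches used Python 3.11.15, numpy 2.4.6 and pandas 2.3.3. Values by library are printed for genes called in a class, the 8 with the largest change per class, and Isg15, Ifit1, Ifit3, Irf7, Stat2, Usp18, Bst2 and Ifi27l2a in macrophages and T cells; subset genes and a few others were added after seeing values. Counts were also simulated, with 100 genes changed at each fold, out of 10199 genes in macrophages. On these counts the test recovered 52% of 2-fold and 98% of 4-fold changes in macrophages, 51% and 84% in T cells, and 39% and 88% in dendritic cells. False calls were 9.09%, 3.57% and 3.05% of calls. In the data, 41.7% of macrophage genes were called, a far larger share than was changed in the simulation, so these rates may not carry over. Replicate numbers 1 to 3 occur in both groups, and same-numbered libraries correlated weakly (-0.004 to 0.14). The best partner had the same number for every pair in all cells, B cells and NK cells, but not for every pair in macrophages and T cells. No block was used in the main fits, and counts with a block are given below.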

Additional observations from a re-analysis of the deposited data

Results flagged for a closer look

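For 9 genes the log2 change in macrophages minus that in T cells differed from 0 in the test of the difference itself (library as a block, edgeR, adjusted p under 0.05): Isg15 (2.22), Zbp1 (1.76), Slfn5 (1.02), Ifi209 (0.97), Sp100 (0.90), Ifi35 (0.76), Bst2 (0.65), Phf11b (-0.78) and Ifi44 (-4.89). The value for Ifi44 rests on 5 UMIs in T cells. The change of Ifi27l2a in T cells minus that in B cells was 0.65 by the same test, a comparison added after seeing the data. It was the only 1 of 21 genes, where 4.42% of 6631 genes differed.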

How the results depend on the processing

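Of the alternatives for single named genes, 508 kept direction and side of the threshold, 66 lost a call, 17 gained 1 and 19 changed sign. All 19 were of genes not called in the full comparison, and 1 passed the threshold with its new sign (Ifit3 in macrophages without rhabdomyolysis replicate 2). Without 1 library at a time, the log2 changes in macrophages ran from -0.957 to 0.448 for Ifit3, -0.271 to 0.779 for Ifit1, -0.990 to 0.300 for Stat2 and -0.391 to 0.00409 for Usp18, and in T cells from -0.653 to 0.204 for Ifit1, -0.167 to 1.002 for Ifit3 and -0.286 to 0.0661 for Irf7. In macrophages Ifit3 was also at -0.0495 with library totals and -0.301 with the replicate block, and with stricter gates Stat2 was at 0.157 and Usp18 at 0.0731. Same-numbered libraries correlated at most weakly, so the replicate block only hints: with it, genes called lower were 6 in all cells and 5 in macrophages, those higher in dendritic cells 2, and all genes called in NK cells 72. Library totals gave 5 higher and 8 lower in all cells, 4 lower in macrophages, and 0 between T and B cells. No filter gave 5 lower in all cells and in macrophages, 11 higher in dendritic cells, 2 higher (328 genes in all) in nonclassical monocytes and 3 lower (373 in all) in B cells. DESeq2 gave 2 higher in dendritic cells (456 in all) and 46 genes in NK cells. No Malat1 minimum gave 5 lower in all cells and 1 higher in macrophages; at least 20 cells gave 227 genes in NK cells. Stricter gates gave 1753 genes in macrophages, 479 in T cells with 1 of the set lower, 129 in B cells, 2 in NK cells, 4 for macrophages minus T cells and 0 for T minus B cells.

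Leaving out 1 library at a time gave these ranges: all cells 4 to 10 higher and 1 to 10 lower; macrophages 0 to 3 higher and 1 to 13 lower (2520 to 5883 genes in all); dendritic cells 0 to 9 higher (372 to 682); T cells 1 to 5 lower (492 to 771); B cells 1 to 2 lower (89 to 367); NK cells 11 to 227 genes; nonclassical monocytes 78 to 184; joined monocytes 1 to 4 higher and 0 to 3 lower (425 to 702); neutrophils 0 to 1 lower (44 to 100); macrophages minus T cells 5 to 10; T minus B cells 0 to 2.

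The summed level, rhabdomyolysis minus control per 10000, was -7.02 in T cells, -2.81 in B cells, 1.3 in nonclassical and 1.87 in joined monocytes without the top gene, and 22.7 in dendritic cells, 2.59 in nonclassical and 9.43 in joined monocytes with stricter gates, which left few cells. The percentage of cells with at least 5 UMIs of the set changed by 3.84 in macrophages with stricter gates (main -3.80). Thinned to 500 UMIs it changed by -2.35 in T, -0.0756 in B and -0.351 in NK cells and -3.23 in joined monocytes; thinned to 2000, by -19.4, -9.05 and -5.93 in T, B and NK cells, 16.8 in nonclassical and 17.5 in joined monocytes and -16.0 in neutrophils. The cause of these changes was not tested. Not run were subtraction of free RNA from hemoglobin and tubule genes (their UMIs lay in a few cells), tests of classical monocytes, and stricter gates for tests of nonclassical monocytes and dendritic cells (too few cells). Depth limits neutrophils, nonclassical monocytes and NK cells most, with 4, 7 and 9 of 35 genes tested.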

Other observations

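Plasmacytoid dendritic cells, known for making type I interferon, were too few to test, at 14 to 19 per control and 2 to 5 per rhabdomyolysis library. Their summed level of the 35 genes was 84.3, 63.5 and 75.7 UMIs per 10000 in control libraries and 63.3, 39.9 and 88.4 in rhabdomyolysis libraries, and the groups overlapped. Bst2, a surface marker of these cells in mice, gave 69.6% of the control and 61.3% of the rhabdomyolysis UMIs of the set. Classical monocytes, also not tested, had sums of 46.0, 46.7 and 75.1 from 3 to 5 cells per control library, and 25.3 to 38.9 from 84 to 146 cells per rhabdomyolysis library.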
